A study of Homo sapiens with 6 samples.

Results

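The 10 genes described here encode cytokines: IL6, IL11 and LIF of the IL6 family, IL1A, IL1B and IL18 of the IL1 family, IL24, and the colony-stimulating factors CSF1, CSF2 and CSF3. They were taken by gene symbol from a table of 23152 genes. All 10 were in the table, and all 10 were among the 14467 genes that passed the filter on low counts and were tested. RNA had been sequenced from 6 samples of T24, an established human bladder cancer cell line grown in culture medium with serum. In 3 samples, called vector, the cells were the control, and in the other 3, called oeRNF112, they overexpressed RNF112, a RING-type E3 ubiquitin ligase. The study used both transfected plasmids and a stable T24 line made with lentivirus, and its RNA-seq methods do not say which was sequenced. The labels give no time after transfection and do not say whether the 3 samples of a group were separate cultures, so the p-values measure the spread between these samples, which may be technical. The treatment protocol given for all 6 samples speaks of siRNA transfection, whereas their group labels name a vector and overexpression. The study's methods describe overexpression by plasmid and by lentivirus. This difference could not be resolved from the sources used here.

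Cytokines of the IL6 family signal through the shared receptor chain GP130, encoded by IL6ST, which each ligand reaches through a partner chain, and which passes the signal to JAK kinases and STAT factors. IL1A and IL1B both bind the receptor IL1R1 with its accessory chain IL1RAP and act through MYD88 and IRAK kinases. IL1B and IL18 are made as inactive precursors that caspase-1 cuts inside inflammasomes, so their mRNA does not show how much active cytokine leaves a cell. The colony-stimulating factors drive the growth of macrophages (CSF1), granulocytes and macrophages (CSF2) and neutrophils (CSF3), and some bladder carcinoma lines are known for secreting them. Many of these mRNAs are short-lived and carry AU-rich elements in their 3′ untranslated region that decay factors bind.

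The total number of counted reads was similar in the 6 samples, between 40029547 and 41259569. RNF112 itself checked the labels: it was counted 19 to 27 times in vector and 29753 to 36963 times in oeRNF112, where reads of the introduced construct may be included. Differences were tested over all 14467 genes with edgeR's quasi-likelihood test, and a gene was called when its p-value adjusted by the Benjamini-Hochberg method was under 0.05. Fold changes are given as oeRNF112 against vector after TMM normalization, a scaling that sets most genes level between samples. Over all genes tested, log2 fold changes had a median of 0.00267.

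Of the 10 cytokine genes, 7 were higher in oeRNF112: IL6, IL11, IL1A, IL1B, IL24, CSF2 and CSF3. By edgeR 0 were called lower, with 1 (IL18) at an unadjusted p under 0.05 in that direction, while DESeq2 called 1 lower and limma on log2(RPKM + 1) called 0. LIF, IL18 and CSF1 did not pass the test. Over all genes tested, 18.1% were called in either direction, 9.97% higher and 8.14% lower. The called cytokines rose between 1.74-fold (CSF3) and 4.99-fold (IL24), and their log2 fold changes, all 10 genes included, had a median of 0.92. A called rise of 2-fold or more was found for 3.38% of all genes tested, and for 4 of these 10 genes (IL6, IL11, IL1A and IL24). For the same 7 genes every oeRNF112 sample was above every vector sample, which held for 18.9% of all genes tested. The 10 genes were chosen with earlier results of these data known, so their counts were not tested against these shares. Together the 10 mRNAs took 1369 to 1564 of every 1000000 counted reads (CPM) in the vector samples and 2408 to 2812 in the oeRNF112 samples. In RNA from whole cultures, more cells that make a cytokine and more mRNA per cell cannot be told apart.

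**Figure D1:**
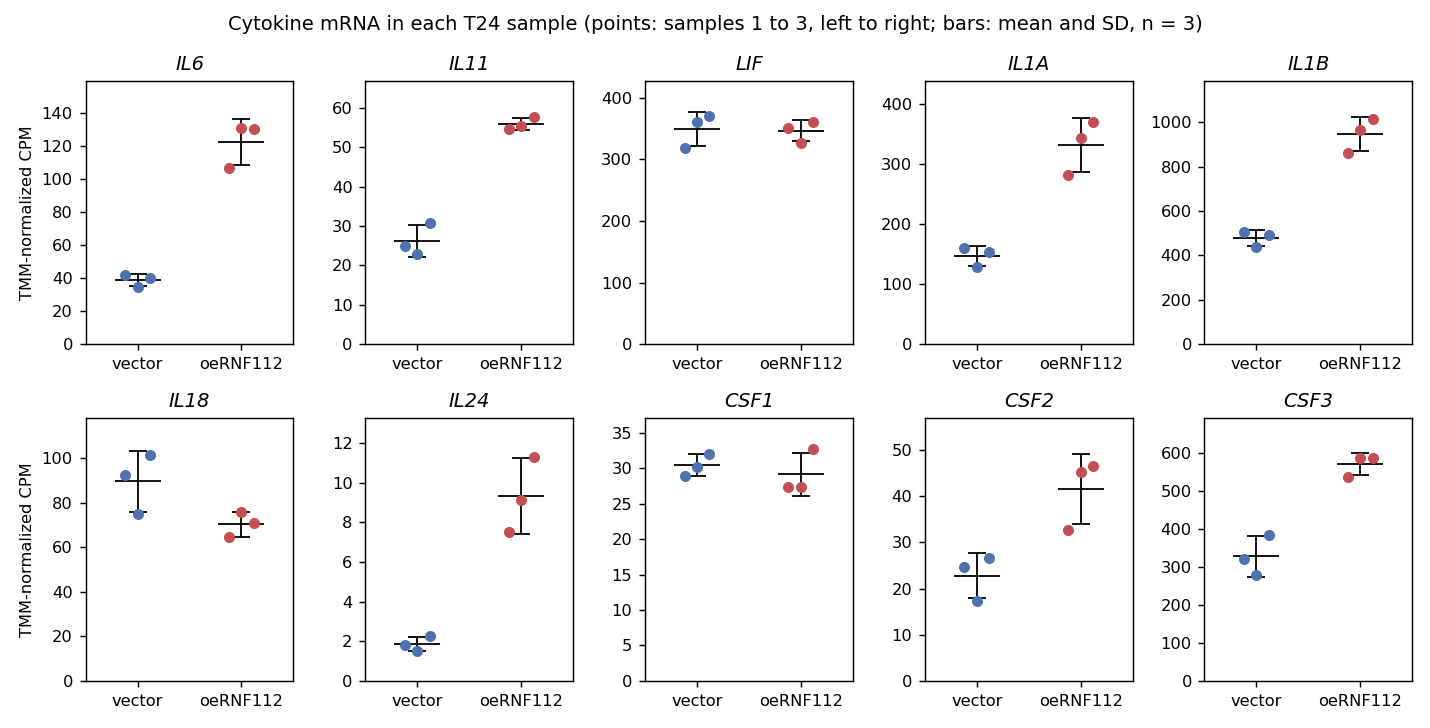
TMM-normalized CPM (counts scaled to the library size, vertical axis, from 0) of each of the 10 cytokine genes in the vector (blue) and oeRNF112 (red) samples, with 1 point a sample and the mean and SD of 3 samples. In 7 panels all red points lie above all blue points, and in those of LIF, IL18 and CSF1 the groups overlap.

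The stretches just before the start sites of 4 of the genes that rose are shown as examples. Each holds matches to binding motifs of inducible factors, as do the windows of IL1A and CSF2, which are not printed. RefSeq promoter windows (GRCh38.p14) were matched for 6 of the 10 genes, IL6, IL11, IL1A, IL1B, IL24 and CSF2. CSF3 and the genes that were not called, LIF, IL18 and CSF1, had no window, so called and uncalled genes cannot be compared here. Each line gives the 250 bases upstream of the annotated start, 5′ to 3′ on the strand of the gene, with the matched letters in capitals.
IL6, chr7:22726950-22727199, plus strand: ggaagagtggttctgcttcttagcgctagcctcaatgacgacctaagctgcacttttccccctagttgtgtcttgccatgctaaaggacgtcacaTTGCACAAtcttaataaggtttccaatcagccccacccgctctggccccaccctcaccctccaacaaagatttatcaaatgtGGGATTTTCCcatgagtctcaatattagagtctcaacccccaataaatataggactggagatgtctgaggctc
IL11, chr19:55370464-55370713, minus strand: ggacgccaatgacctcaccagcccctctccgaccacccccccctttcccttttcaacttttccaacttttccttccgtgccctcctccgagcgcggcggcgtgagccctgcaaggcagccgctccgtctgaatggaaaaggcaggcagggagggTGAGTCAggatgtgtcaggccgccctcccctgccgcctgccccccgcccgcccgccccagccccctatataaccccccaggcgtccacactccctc
IL1B, chr2:112836780-112837029, minus strand: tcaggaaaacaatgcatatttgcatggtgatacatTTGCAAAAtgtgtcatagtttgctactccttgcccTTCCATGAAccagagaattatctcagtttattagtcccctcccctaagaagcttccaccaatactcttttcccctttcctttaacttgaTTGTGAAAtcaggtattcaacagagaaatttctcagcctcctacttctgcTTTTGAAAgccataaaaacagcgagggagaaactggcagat
IL24, chr1:206897193-206897442, plus strand: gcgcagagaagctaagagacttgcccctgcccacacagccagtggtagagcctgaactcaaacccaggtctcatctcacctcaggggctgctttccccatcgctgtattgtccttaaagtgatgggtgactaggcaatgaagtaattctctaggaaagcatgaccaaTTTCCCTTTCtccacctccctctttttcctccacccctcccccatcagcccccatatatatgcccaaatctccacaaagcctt
The capitals in IL6 mark, first, a match to the C/EBP motif TTNNGNAA on the opposite strand, starting 155 bases before the start site, and then the NF-kB consensus, GGGATTTTCC, starting 73 bases before it. In IL11 they mark an AP-1 motif (TGANTCA) 96 bases upstream. In IL1B they mark C/EBP matches at 215, 91 and 41 bases upstream and a STAT motif (TTCNNNGAA), TTCCATGAA, at 180. In IL24 they mark a match to the interferon response motif on the opposite strand, TTTCCCTTTC as printed, 83 bases upstream. Of the windows not printed, IL1A held an AP-1 match 12 bases upstream and C/EBP matches at 199 and 32, and CSF2 held a STAT match at 190. The E-box CACGTG was in none of the 6 windows.

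Motifs were searched on both strands, and a motif that reads almost the same on both, such as AP-1 or STAT, can match on both at 1 position. Among all 35116 RefSeq windows of this length, 5.21% held the NF-kB consensus, 6.57% AP-1, 33.2% C/EBP, 6.57% STAT, 3.02% the interferon response motif and 6.34% the E-box. Among the 16553 windows of tested genes, the shares in the same order were 5.98%, 4.83%, 24.7%, 5.49%, 2.48% and 8.02%. Among the 6 cytokine windows, NF-kB was in 1, AP-1 in 2, C/EBP in 3, STAT in 2 and the interferon response motif in 1. These are matches of letters, and no binding was measured.

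IL6 (chr7:22727200-22731998 in GRCh38.p14, as for the genes that follow), which acts on immune and tumor cells through IL6R and GP130, rose by the largest factor within its family. It was counted 1645, 1377 and 1546 times in the vector samples, and 4406, 5376 and 5510 times in the oeRNF112 samples. Its level per length (RPKM, counts divided by the length of the gene and the total of the sample) went from 12.2 ± 0.992 to 41.3 ± 4.66 (SD, n = 3 in each group, as for all such values below). The lowest oeRNF112 sample was 156% above the highest vector sample in normalized CPM. The fold change was 3.16 with a 95% confidence interval from 2.65 to 3.78 (log2 1.66, SE 0.115, edgeR adjusted p = 4.34e-05), which ranked 216 among the genes tested. Its level moved from percentile 69.3 to 89.5 of the genes tested.

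IL11 (chr19:55364382-55370463), a GP130 ligand known for its part in fibrosis and platelet formation, was counted 983, 914 and 1187 times in vector and 2272, 2284 and 2442 times in oeRNF112. The oeRNF112 samples were close to each other, at 24.3 ± 0.959 RPKM, and all above the vector samples, at 10.6 ± 1.54 RPKM. The rise was 2.14-fold, with an interval from 1.79 to 2.57 (log2 1.10, SE 0.117, edgeR adjusted p = 0.000412).

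LIF (chr22:30240453-30246759), which keeps stem cells undifferentiated and signals through LIFR and GP130, was the most abundant of the family in both groups. Its counts were 12593, 14399 and 14264 in vector and 14531, 13450 and 15268 in oeRNF112, and the groups overlapped. The level was 79.5 ± 6.72 RPKM in vector and 84.1 ± 5.56 RPKM in oeRNF112. On the TMM scale the fold change was 0.991, with an interval from 0.862 to 1.14 (log2 -0.01, SE 0.0904, edgeR adjusted p = 0.936). Its sign depended on the scaling, with a log2 fold change of 0.08 when library totals replaced the TMM factors. The ratio of IL6 to LIF in RPKM was 0.155 ± 0.0246 in vector and 0.493 ± 0.0675 in oeRNF112. IL6 thus stood well below LIF in every sample, but nearer to it in oeRNF112.

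IL1A (chr2:112773925-112784493), an alarmin that is active as its precursor and is also cut by calpains, was counted 6329, 5111 and 5887 times in vector and 11675, 14131 and 15638 times in oeRNF112. Its level went from 67.5 ± 6.67 to 163 ± 22.9 RPKM. The rise was 2.26-fold, with an interval from 1.87 to 2.73 (log2 1.18, SE 0.123, edgeR adjusted p = 0.000402).

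IL1B (chr2:112829751-112836779), the main secreted ligand of IL1R1, was the most abundant of the 10 mRNAs per length in both groups. Its counts were 20018, 17528 and 19078 in vector and rose to 35715, 39693 and 42964 in oeRNF112. Its 295 ± 17.4 RPKM in vector were already at percentile 98.8 of the genes tested, and it reached 623 ± 54.7 RPKM, percentile 99.4, in oeRNF112. The fold change was 1.98, with an interval from 1.69 to 2.30 (log2 0.98, SE 0.0998, edgeR adjusted p = 0.000344). IL1A and IL1B lie side by side on chromosome 2, 45.3 kb apart, and the ratio of IL1B to IL1A in RPKM was 4.39 ± 0.183 in vector and 3.84 ± 0.221 in oeRNF112.

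IL18 (chr11:112143260-112164094), an inducer of interferon gamma in lymphocytes, went the other way in its mean, from 74.95 ± 10.2 to 63.0 ± 4.49 RPKM. The counts were 3652, 2995 and 3920 in vector and 2677, 3114 and 3006 in oeRNF112, and the lowest vector sample lay within the oeRNF112 range. The fold change was 0.786, with an interval for this single gene from 0.653 to 0.946 (log2 -0.35, SE 0.120), but after adjustment over all genes it did not pass (edgeR adjusted p = 0.0718). With DESeq2 it passed, at an adjusted p of 0.0410, as it did in edgeR without vector replicate 2, the lowest vector sample (log2 -0.46, adjusted p = 0.00864). Over the 14 other settings its adjusted p in edgeR, DESeq2 or limma ran from 0.00864 to 0.2396. The ratio of IL1B to IL18 in RPKM was 3.97 ± 0.366 in vector and 9.90 ± 0.573 in oeRNF112, without overlap.

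IL24 (chr1:206897443-206904139), a cytokine of the IL10 family that binds receptors made of IL20RB with IL20RA or IL22RA1, was the least abundant of the 10 by mean RPKM and changed by the largest factor, except with limma on log2(RPKM + 1), where its log2 fold change was 1.60 and that of IL6 was 1.67. It was counted 72, 61 and 87 times in vector and 311, 375 and 479 times in oeRNF112. The lowest oeRNF112 sample was 233% above the highest vector sample in normalized CPM. Its level went from 0.894 ± 0.163 to 4.77 ± 1.03 RPKM, still below the median of the genes tested, at percentile 46.6. The rise was 4.99-fold, with an interval from 3.64 to 6.84 (log2 2.32, SE 0.204, edgeR adjusted p = 0.000176), which ranked 70 among the genes tested.

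CSF3 (chr17:40015440-40017813), or G-CSF, was second only to IL1B in abundance, with 12746, 11119 and 14823 counts in vector and 22308, 24171 and 24891 in oeRNF112. Its level went from 210 ± 31.1 to 390 ± 19.9 RPKM. On the TMM scale the fold change was 1.74, with an interval from 1.45 to 2.09 (log2 0.80, SE 0.119, edgeR adjusted p = 0.00209).

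CSF2 (chr5:132073789-132076170), or GM-CSF, varied the most between samples among the 3 colony-stimulating factors. It had 973, 689 and 1026 counts in vector and 1358, 1862 and 1968 in oeRNF112. The groups did not overlap, but the gap was narrow, with the lowest oeRNF112 sample 23.2% above the highest vector sample in normalized CPM. The level was 27.9 ± 5.62 RPKM in vector and 54.4 ± 9.99 RPKM in oeRNF112. On the TMM scale the fold change was 1.82, with an interval from 1.38 to 2.40 (log2 0.86, SE 0.178, edgeR adjusted p = 0.0100).

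CSF1 (chr1:109910506-109930992), or M-CSF, had 1146, 1209 and 1238 counts in vector and 1137, 1126 and 1384 in oeRNF112, which overlapped. Its level was 6.13 ± 0.314 RPKM in vector and 6.28 ± 0.747 RPKM in oeRNF112. The fold change was 0.959, with an interval from 0.817 to 1.13 (log2 -0.06, SE 0.104, edgeR adjusted p = 0.717), and with library totals the log2 fold change was 0.03. The RPKM ratio of CSF3 to CSF1 was 34.2 ± 4.52 in vector and 62.5 ± 5.53 in oeRNF112.

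**Figure D2:**
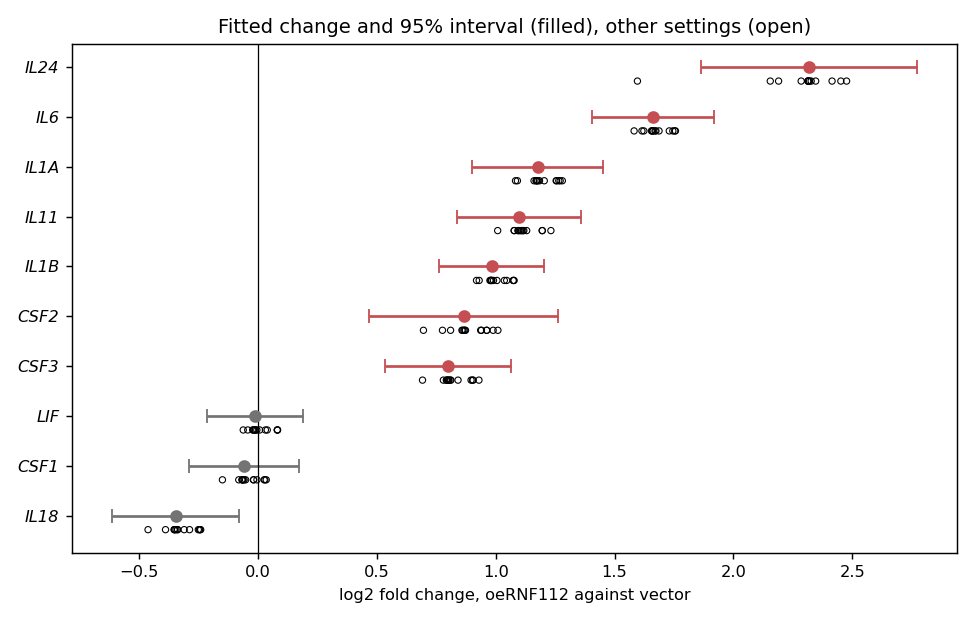
Log2 fold change (horizontal axis) of each cytokine gene in oeRNF112 against vector, with its 95% confidence interval (filled points and bars, red for genes called higher, grey for genes not called) and the values under the 14 other settings (open points). The intervals of IL24, IL6, IL1A, IL11, IL1B, CSF2 and CSF3 lie above 0, those of LIF and CSF1 span it, and that of IL18 lies below it although the gene was not called after adjustment.

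All 7 calls held under each of 14 other ways of processing, which changed the scaling, the filter, the test or the unit or left out 1 sample. The weakest was CSF2 without vector replicate 1, at an edgeR adjusted p of 0.0377 and a log2 fold change of 0.94. Over the 14 settings its adjusted p in edgeR, DESeq2 or limma ran from 3.97e-05 to 0.0377. Samples within a group also differed together. Vector replicate 2 was the lowest vector sample for 8 of the 10 genes and vector replicate 3 the highest for 7. Among the oeRNF112 samples, replicate 1 was the lowest for 8 genes and replicate 3 the highest for 7. The values of the 10 genes in a sample are thus not independent of each other.

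By mean RPKM, the order in vector was IL1B, CSF3, LIF, IL18, IL1A, CSF2, IL6, IL11, CSF1 and IL24. The sample ranges of neighbours overlapped for LIF and IL18, for IL18 and IL1A, and for IL6 and IL11. In oeRNF112 the order was IL1B, CSF3, IL1A, LIF, IL18, CSF2, IL6, IL11, CSF1 and IL24, with overlap of IL18 and CSF2, of CSF2 and IL6, and of CSF1 and IL24. IL1A thus moved from a place where its range overlapped those of IL18 and LIF in vector to above LIF without overlap in oeRNF112.

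**Figure D3:**
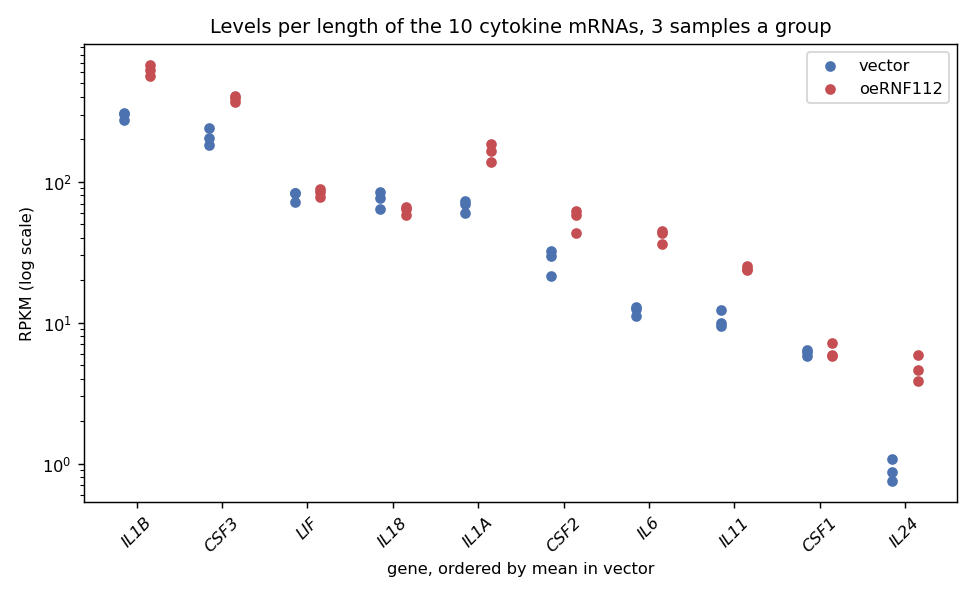
RPKM (vertical axis, log scale) of the 10 cytokine genes, ordered by their mean in vector, with 1 point for each vector (blue) and oeRNF112 (red) sample. Levels run from 0.894 RPKM for IL24 to 295 RPKM for IL1B in the vector means, and from 4.77 to 623 RPKM in the oeRNF112 means.

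The 3′ untranslated regions of these genes were searched for ATTTA, the core of the AU-rich element. The lines show the 30 bases with the most copies in each of 9 genes, which lets the tandem copies of CSF2, IL11 and IL1B be set beside the scattered ones of the others. IL18 held no ATTTA. Sequences are DNA letters of the mRNA strand from GRCh38, with GENCODE 29 transcripts, and capitals mark ATTTA.
CSF2, chr5:132076072-132076101, plus strand: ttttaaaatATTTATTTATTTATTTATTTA
IL11, chr19:55365951-55365980, minus strand: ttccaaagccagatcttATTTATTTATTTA
IL1B, chr2:112830003-112830032, minus strand: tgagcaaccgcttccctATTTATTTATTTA
IL6, chr7:22731697-22731726, plus strand: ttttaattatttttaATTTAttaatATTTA
CSF3, chr17:40016975-40017004, plus strand: tcccatgtATTTAtctctATTTAatATTTA
IL1A, chr2:112774424-112774453, minus strand: tATTTAtatatgtATTTAtaaatatATTTA
IL24, chr1:206903274-206903303, plus strand: agattcttgtATTTAttacaactctATTTA
LIF, chr22:30240522-30240551, minus strand: ATTTAttcaatgtcatATTTAaaatATTTA
CSF1, chr1:109930911-109930940, plus strand: tttatataaagtcATTTAaatatctATTTA
CSF2 held 8 copies in 318 bases, IL6 held 6 in 429, IL1B 6 in 610, CSF3 7 in 854, IL24 3 in 421 and IL1A 5 in 1152. IL11 held 9 in 1618, LIF 7 in 3204, CSF1 4 in 2154 and IL18 0 in 345. Per kilobase, the 7 genes called higher held between 4.34 (IL1A) and 25.2 (CSF2) copies, and the 3 that were not called held 2.18 (LIF), 1.86 (CSF1) and 0 (IL18). By number of copies the called and uncalled genes overlapped, with 7 in LIF and 4 in CSF1 against 3 in IL24 and 5 in IL1A. Copies per kilobase were not computed over all genes tested. The longer element ATTTATTTA was in CSF2 (4 overlapping copies), IL11 (3) and IL1B (2). Among 11672 tested genes with such a region of at least 100 bases, whose median length was 1103 bases, the median was 2 copies of ATTTA, 42.7% held at least 3, and 6.95% held ATTTATTTA. The search was chosen after the fold changes were known and is a description of 10 genes, with no test.

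Factors that bind such elements or degrade cytokine mRNA were measured in the same samples. Of 12 regulators of cytokine mRNA decay, all tested, 3 were higher and 1 lower, and log2 fold changes had a median of 0.11. Over all genes tested, 9.97% were called higher and 8.14% lower. The counts of this short list and of those that follow are read beside these shares and were not tested against them. ZFP36, which binds AU-rich elements and speeds decay, was counted 437, 478 and 549 times in vector and 687, 671 and 840 times in oeRNF112 (log2 0.50, SE 0.131, edgeR adjusted p = 0.0265). ZC3H12A, an endonuclease for IL6 and other mRNAs, had a log2 fold change of 0.40 (SE 0.0874, edgeR adjusted p = 0.0133), and N4BP1, also an RNA-degrading protein, of 0.36 (SE 0.101, edgeR adjusted p = 0.0351). ZFP36L2, a relative of ZFP36, was lower by log2 -0.49 (SE 0.101, edgeR adjusted p = 0.00993). The most abundant of the 12, HNRNPD, ZFP36L1 and KHSRP, did not pass. HNRNPD was at 106 ± 4.51 RPKM in vector and 104 ± 5.65 RPKM in oeRNF112, ZFP36L1 at 54.0 ± 2.21 and 60.8 ± 3.31 RPKM, and KHSRP at 49.3 ± 2.25 and 47.5 ± 2.42 RPKM. The calls of ZFP36, ZC3H12A, N4BP1 and ZFP36L2 were lost with the replicate number as a block, and the first 3 also without vector replicate 1 or oeRNF112 replicate 3. Those of ZFP36 and N4BP1 were lost without oeRNF112 replicate 1 as well, and that of N4BP1 without vector replicate 3.

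The receptor chains of these cytokines were mostly low in T24 cells. Of 18 chains, 10 were tested, 3 were higher, 1 was lower, and the median log2 fold change was 0.43 (all genes tested: 9.97% higher, 8.14% lower). IL6R was counted 151, 161 and 125 times in vector and 312, 318 and 371 times in oeRNF112 (log2 1.12, SE 0.144, edgeR adjusted p = 0.00109). IL1R1, the signalling receptor of IL1A and IL1B, was counted 127, 143 and 91 times in vector and 332, 273 and 347 times in oeRNF112 (log2 1.32, SE 0.179, edgeR adjusted p = 0.00138). IL22RA1, a chain that binds IL24, was counted 60, 69 and 53 times in vector and 132, 126 and 143 times in oeRNF112 (log2 1.06, SE 0.183, edgeR adjusted p = 0.00435). These 3 remained scarce, none above 1.24 RPKM in its oeRNF112 mean. IL11RA, the IL11 chain, was lower, with 451, 499 and 547 counts in vector and 436, 350 and 327 in oeRNF112 (log2 -0.51, SE 0.145, edgeR adjusted p = 0.0373), a call that held under 6 of the 14 other settings and was lost, among others, without vector replicate 1 or 3 or oeRNF112 replicate 2 or 3.

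The shared chain IL6ST was far more abundant, at 18.2 ± 6.21 RPKM in vector and 23.3 ± 4.30 RPKM in oeRNF112, and did not pass the test (log2 0.27, edgeR adjusted p = 0.415). OSMR, the oncostatin M chain, was at 18.2 ± 4.88 RPKM in vector and 24.2 ± 2.17 RPKM in oeRNF112 and did not pass (log2 0.32, edgeR adjusted p = 0.183). IL6ST was counted 6961, 8903 and 4328 times in vector and 8009, 7294 and 10304 times in oeRNF112, and its SD in vector exceeded the difference of the means. The receptors of the colony-stimulating factors were at or near 0. CSF1R had 0, 4 and 1 counts in vector and 15, 1 and 3 in oeRNF112, and no sample held more than 3 counts of CSF2RA, CSF2RB or CSF3R. A count of 0 in a library of this size allows up to 3 reads, and this covers counting error only.

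Of 11 genes downstream of GP130, 2 were higher and 0 lower, and the median log2 fold change was 0.07 (in the lower direction 1 had an unadjusted p under 0.05 in edgeR, and DESeq2 and limma called 0). Of the 2, PIM1, a kinase gene induced by STAT factors, was counted 518, 593 and 605 times in vector and 994, 1041 and 1116 times in oeRNF112 (log2 0.80, SE 0.105, edgeR adjusted p = 0.00124). STAT3, the main STAT of IL6, was at 27.6 ± 2.16 RPKM in vector and 25.1 ± 1.002 RPKM in oeRNF112 and did not pass (log2 -0.23, edgeR adjusted p = 0.0797). SOCS3, the feedback inhibitor of GP130, had 1231, 1235 and 1410 counts in vector and 1291, 1443 and 1567 in oeRNF112 and did not pass either (log2 0.07, edgeR adjusted p = 0.696).

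Of 14 genes downstream of IL1 receptors, 0 were higher and 1 was lower, and log2 fold changes had a median of 0.01. The lower one was TAB1, an adaptor of the kinase TAK1 (log2 -0.41, SE 0.0877, edgeR adjusted p = 0.0120). Its call was lost without vector replicate 1 or oeRNF112 replicate 1, and with the replicate number as a block. IRAK1, the most abundant, was at 141 ± 10.5 RPKM in vector and 156 ± 2.58 RPKM in oeRNF112 and did not pass (log2 0.06, edgeR adjusted p = 0.696). Of 8 antagonists and decoys, 5 were tested and none was called, with a median log2 fold change of 0.13. No antagonist had an unadjusted p under 0.05 in edgeR, and DESeq2 and limma called 0. For the IL1 receptor genes 1 had an unadjusted p under 0.05 in the higher direction, where DESeq2 called 0 and limma 1.

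Genes for the cleavage and release of IL1B and IL18 moved in both directions. Of 13 listed, 11 were tested, 2 were higher and 2 lower, and the median log2 fold change was -0.16. NLRP3, an inflammasome sensor, was counted 198, 208 and 189 times in vector and 391, 455 and 433 times in oeRNF112 (log2 1.02, SE 0.124, edgeR adjusted p = 0.000754). NLRC4, another sensor, was counted 4 times in each vector sample and 18, 22 and 15 times in oeRNF112. It passed the filter on low counts only through its oeRNF112 samples and so had to differ, and with at least 10 counts required in every sample 1 gene of the list was called higher. CASP1, the protease that cuts both precursors, was lower, with 653, 576 and 684 counts in vector and 452, 571 and 452 in oeRNF112 (log2 -0.46, SE 0.136, edgeR adjusted p = 0.0442). GSDME, a pore-forming gasdermin, was lower by log2 -0.36 (SE 0.0890, edgeR adjusted p = 0.0206). CAPN2 and CAPN1, calpain subunits of the kind that cut IL1A, did not pass. CAPN2 was at 286 ± 7.90 RPKM in vector and 280 ± 8.85 RPKM in oeRNF112, and CAPN1 at 98.8 ± 3.69 and 88.5 ± 2.57 RPKM. The CASP1 call held under 6 and the GSDME call under 10 of the 14 other settings, and both were lost without vector replicate 1, oeRNF112 replicate 1 or oeRNF112 replicate 3. CASP1 was also lost without vector replicate 3.

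**Figure D4:**
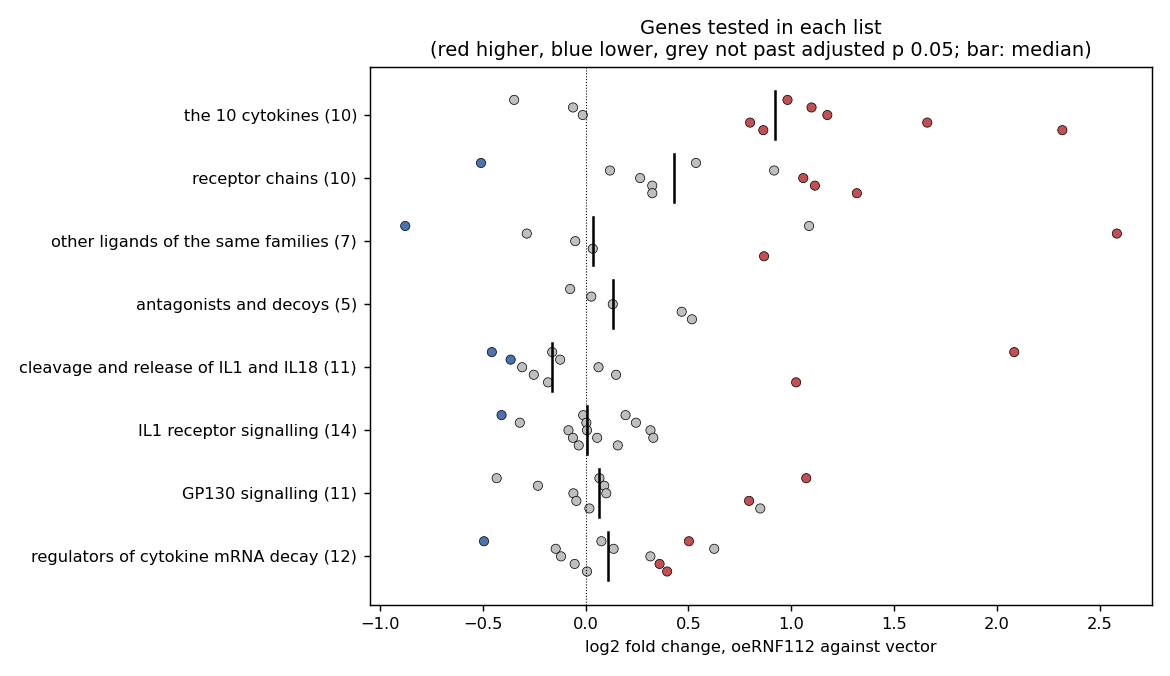
Log2 fold change (horizontal axis) of each tested gene in the cytokine set and in 7 lists of related genes, with the number tested in brackets, red for genes called higher, blue for genes called lower, grey for genes not called, and a bar at the median. The median is 0.92 for the 10 cytokines, 0.43 for the receptor chains and between -0.16 and 0.13 for the other lists.

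Other ligands of the same families were mostly scarce. Of 22 listed, 16 were in the table and 7 were tested, of which 2 were higher and 1 lower, and log2 fold changes had a median of 0.04. KITLG, the ligand of the receptor KIT, was counted 1769, 2006 and 1353 times in vector and 2945, 2879 and 4069 times in oeRNF112 (log2 0.87, SE 0.157, edgeR adjusted p = 0.00559). IL36G, an IL1 family ligand, was counted 5, 2 and 2 times in vector and 25, 12 and 22 times in oeRNF112. It too passed the filter only through its oeRNF112 samples, and with at least 10 counts required in every sample 1 gene of this list was called higher. EBI3, a subunit of IL27 and IL35, was lower, with 167, 125 and 168 counts in vector and 93, 87 and 85 in oeRNF112 (log2 -0.88, SE 0.186, edgeR adjusted p = 0.0114). The EBI3 call was lost without vector replicate 1 and with the replicate number as a block.

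The genes next to the cytokines on the chromosomes, IL1A and IL1B aside, did not pass where they could be tested, except for COX6B2. IL6 lies on chromosome 7 between STEAP1B and TOMM7, which did not pass (log2 0.35 and -0.33, edgeR adjusted p = 0.0918 and 0.113). Beyond the IL1A and IL1B pair on chromosome 2 lie CKAP2L (log2 0.06, edgeR adjusted p = 0.734) and IL37 (log2 1.09, edgeR adjusted p = 0.231), and neither passed. CSF3 on chromosome 17 lies 1.29 kb from MED24 and 17.5 kb from PSMD3, which had log2 fold changes of -0.10 and -0.16 and did not pass (edgeR adjusted p = 0.436 and 0.218). COX6B2, 9.66 kb from IL11 on chromosome 19, was higher, with low counts of 8, 17 and 15 in vector and 55, 43 and 61 in oeRNF112 (log2 1.90, SE 0.339, edgeR adjusted p = 0.00514). It passed the filter on low counts only with the help of its oeRNF112 samples. With at least 10 counts required in every sample it was not tested, and its call under the other settings is not given here. The neighbours of IL24 and CSF2 were too low to be tested. Distances are from RefSeq on GRCh38.p14, and whether counting used the strand is not given in the sources used here.

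For each called gene the genes of nearest profile were found among 14443 genes, by the root mean square distance of log2 normalized CPM, relative to the vector mean, over the 6 samples. For IL6 they were IFITM1 (distance 0.0642), ALOXE3 and OAS1, of which IFITM1 and OAS1 are interferon-induced antiviral genes. For IL11 they were LAT2, SEMA7A and C11orf96, for IL1A POLR3G, GAREM2 and LIN7B, and for IL1B LRATD2, STXBP6 and TFPI2. For CSF3 they were PIM3, CARMIL2 and HLA-F, and for CSF2 EPCAM, CXCL3 and MAPK8IP2, of which CXCL3 is a neutrophil-attracting chemokine. IL24 had no gene as near, with NEURL3 at 0.176, then CACNA1G and SUN3. These are descriptions of 6 samples in 2 groups, so that any gene with a like fold change lies near.

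Markers of other cell types were read in the same samples, since leukocytes also make these cytokines. Of 13 leukocyte markers, 11 were in the table and 5 were tested, of which CD68 was higher (log2 1.21, edgeR adjusted p = 0.000312) and LAPTM5 lower (log2 -0.88, edgeR adjusted p = 0.0308). The LAPTM5 call was lost with library totals, and without vector replicate 1 or 3 or oeRNF112 replicate 2 or 3. The summed level of the 11 markers was 17.4 to 18.6 RPKM in vector and 33.3 to 41.3 RPKM in oeRNF112, and without CD68, which encodes a lysosomal protein, it was 4.27 to 4.79 and 2.79 to 5.61 RPKM. PTPRC, which defines leukocytes, had 54, 37 and 40 counts in vector and 33, 24 and 26 in oeRNF112, and CD3E was at 0 in 5 of the 6 samples. In oeRNF112 replicate 1, LYZ was counted 97 times, against 2 to 8 in the other 5 samples, and IL1RN 24 times, against 0 to 2. This sample was the lowest of its group for 8 of the 10 cytokines, and all 7 calls held without it. The part of leukocytes in the cytokine values was not tested.

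Of 7 fibroblast and endothelial markers, only PDGFRA passed the filter, through its oeRNF112 samples alone, at 1, 3 and 8 counts in vector and 19, 29 and 19 in oeRNF112. With at least 10 counts required in every sample none of the 7 was tested. The sum of the 7 did not exceed 0.150 RPKM in any sample. Of 11 urothelial and epithelial markers, 9 were in the table and 6 were tested. KRT18 (log2 -0.51, edgeR adjusted p = 0.0130) and KRT7 (log2 -0.48, edgeR adjusted p = 0.0226) were lower, and EPCAM was higher (log2 0.84, edgeR adjusted p = 0.0208). All 3 calls were lost without vector replicate 1 and with the replicate number as a block, and that of KRT7 also with limma. The calls of KRT18 and KRT7 were also lost without oeRNF112 replicate 1, those of KRT7 and EPCAM without oeRNF112 replicate 3, that of KRT7 without vector replicate 3 and that of EPCAM without oeRNF112 replicate 2. The summed level of the 9 was 1796 to 2232 RPKM in vector and 1462 to 1700 RPKM in oeRNF112, with KRT18, KRT8 and KRT7 far above the rest. CDH1, UPK2 and UPK3A were at or near 0 in both groups. The part of these markers in the cytokine result was not tested.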

How the data were processed

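RNA-seq of 3 vector and 3 oeRNF112 samples of T24 cells was used. Libraries were made with a stranded mRNA kit, and the submitters' processing notes name Trimmomatic 0.36, featureCounts, Subread 1.5.1 and GRCh38. The aligner is not given in the sources used here. The authors deposited raw counts of reads for each gene, and RPKM values made from them. In all 23152 of 23152 genes the RPKM could be computed back from the count, the sample total and 1 gene length to within 0.1%.

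Counts were tested with edgeR 4.0.16 in R 4.3.3 (filterByExpr, TMM factors, quasi-likelihood test, Benjamini-Hochberg adjustment, threshold 0.05, no covariate), and levels were given as RPKM. A standard error is the log2 fold change divided by the root of F. Scripts were tested on simulated data. Alternatives were other size factors, library totals, DESeq2 1.42.0, no filter or at least 10 counts in every sample, a replicate block, limma 3.58.1 on log2(RPKM + 1) or log2(RPKM + 0.1), and each sample left out in turn.

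The cytokine genes and the lists were chosen with earlier results of these data known. Genes named besides the 10 cytokines and RNF112 were drawn by a rule. It took, from each list, up to 6 called genes and the 3 of highest mean RPKM. It also took the 3 genes of nearest profile to each called cytokine, and the neighbours on the chromosome. Not every gene under this rule is named, for instance JAK1, PTPN11 and CASP4. STAT3, SOCS3, LYZ, IL1RN, PTPRC, CD3E, CDH1, UPK2, UPK3A and the colony-stimulating factor receptors fall outside this rule and were named for their role after their values were seen. Promoter windows came from RefSeq and 3′ untranslated regions from GENCODE 29, taking the transcript with the longest coding sequence of each gene. The result of 1 called gene of the lists is not reported here.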

Additional observations from a re-analysis of the deposited data

How the results depend on the processing

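The counts of cytokine genes called higher (7) and the direction of those 7 held under all 14 alternatives. The number called lower went from 0 to 1 with DESeq2, and was 0 to 1 over the fits that left out 1 sample. LIF changed sign to log2 0.0806 with library totals, 0.0810 and 0.0819 with limma on log2(RPKM + 1) and log2(RPKM + 0.1), and ranged from -0.0626 to 0.0384 over the fits without 1 sample. CSF1 changed sign to 0.0342, 0.0255 and 0.0285 under the first 3 of these. Neither gene passed a test under any of them. The cause of these changes was not tested. Over all genes, 2620 calls became 876 with the replicate number as a block and 1061 (without vector replicate 1) to 3387 (without vector replicate 2) when 1 sample was left out. Correlations of same-numbered deviations were -0.181, -0.539 and -0.454, but samples of unlike number were not compared. Whether replicate numbers pair the samples is thus not known, and the block is given as a check. With it the 10 cytokines had 7 calls higher and 0 lower. The share of higher calls was 55% with TMM factors, 75.3% with library totals (2020 higher and 663 lower), 73.6% and 73.8% with limma, 70.5% with the block and 52.8% with DESeq2. At 40029547 to 41259569 counts a sample, genes with a handful of reads, such as the receptors of the colony-stimulating factors, could not be compared.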
